A study of Rattus norvegicus with 132 samples.

Results

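Igfbp1 encodes insulin-like growth factor binding protein 1, a secreted protein that binds insulin-like growth factors (IGFs) in blood and tissue fluid. It is 1 of 9271 genes in the table, and it was chosen for its own values, which were known to be higher in the injury groups and to differ between kidney areas. The levels and differences of Igfbp1 below are therefore a description and carry no test.

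The data are spatial expression profiles of rat kidney sections, fixed in formalin and embedded in paraffin, in which 132 regions of interest (ROIs) were picked by hand and read with a probe panel designed for mouse transcripts. They cover 4 groups of 3 animals: Sham, HS, RM and RM-HS, the last of which carried both injuries. The labels leave both abbreviations unexpanded; in work on trauma-induced acute kidney injury, HS commonly stands for hemorrhagic shock and RM for rhabdomyolysis, the breakdown of skeletal muscle. Strain, age, sex and the time after injury are not given in the sources used here. Each ROI came from cortex (C), corticomedullary junction (CMJ), glomeruli (G) or medulla (M).

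By binding IGFs, the protein of Igfbp1 limits or prolongs their action on the IGF receptor, which drives growth and glucose uptake. The gene is best known in liver and decidua. Insulin is known to repress it through FOXO factors, and glucocorticoids, hypoxia and the ATF4 arm of the integrated stress response are known to raise it. In kidney it is a minor transcript of tubules in health.

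RefSeq places the gene (gene ID 25685) on the plus strand of chromosome 14 of the rat assembly GRCr8, from 86261277 to 86266344. The 250 bases before its start site, chr14:86261027-86261276, are shown because they hold the letters by which insulin control of the gene is usually described. Capitals mark the forkhead motifs CAAAACA, on the plus strand, and CAAAATA, which lies on the minus strand and so reads TATTTTG here.
Igfbp1 upstream: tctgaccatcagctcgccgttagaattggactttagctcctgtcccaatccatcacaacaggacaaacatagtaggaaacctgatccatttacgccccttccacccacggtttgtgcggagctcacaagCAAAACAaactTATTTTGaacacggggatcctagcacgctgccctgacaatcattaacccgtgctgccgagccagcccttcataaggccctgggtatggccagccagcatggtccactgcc
The motifs begin 121 and 110 bases before the start site and do not overlap. On either strand, CAAAACA occurred in 6.28% and CAAAATA in 4.96% of 33469 promoter windows of 300 bases (250 before the start site and 50 after), and both together in 144 of them (0.430%). The window of Igfbp1 held neither the hypoxia motif ACGTG, found in 19.3% of windows, nor the palindromic glucocorticoid element (AGAACA, NNN and TGTTCT joined), found in 5 windows (0.0149%). These matches describe letters only; no binding was measured here.

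Values are signal scaled by the depositors so that the 75th percentile of every ROI is the same, 58.2. Total reads, recovered from the steps between values, ran from 17894 to 2305964 per ROI, with area medians of 1309721 in medulla, 1144390 at the junction, 819487 in cortex and 93104 in glomeruli. No value was 0, and whether the lowest counts are a floor was not tested. In the shallowest ROI, a Sham glomerular one, 1 read stands for a signal of 29.1. By the wells in the sample titles, ROIs were assigned to 12 runs, 3 in each group, on 2 plates. RM-HS run 3 joins medullary wells C02 to C04 to wells D05 to E01 of the other areas. Sham run 1 lies between them. That these wells belong together was assumed, and every result with or without RM-HS run 3 rests on it. All HS ROIs and Sham run 3 lie on plate E (41 ROIs), 90 ROIs of the other groups on plate C, and 1 RM glomerular ROI on plate A. Plate and HS are thus told apart by 12 Sham ROIs, and which ROI came from which animal is not given. In Sham, 3 of 4 podocyte markers were highest in the glomerular ROIs, 3 of 4 loop of Henle markers and 2 of 3 collecting duct markers in medulla, 4 of 5 proximal tubule markers in cortex, and 2 of 3 straight proximal tubule markers at the junction. No ROI had the same values as another (8646 pairs).

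Igfbp1 was above 2 times the negative probe, the panel's measure of background, in 122 of 132 ROIs. Its signal ran from 23.3 in a Sham glomerular ROI to 1709 in an RM-HS medullary ROI. Its reads ran from 1 to 5024 per ROI, these extremes being other ROIs of the same groups and areas. The levels were lowest in glomeruli and highest in injured medulla, as the plot of all ROIs by group and area shows.

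**Figure D1:**
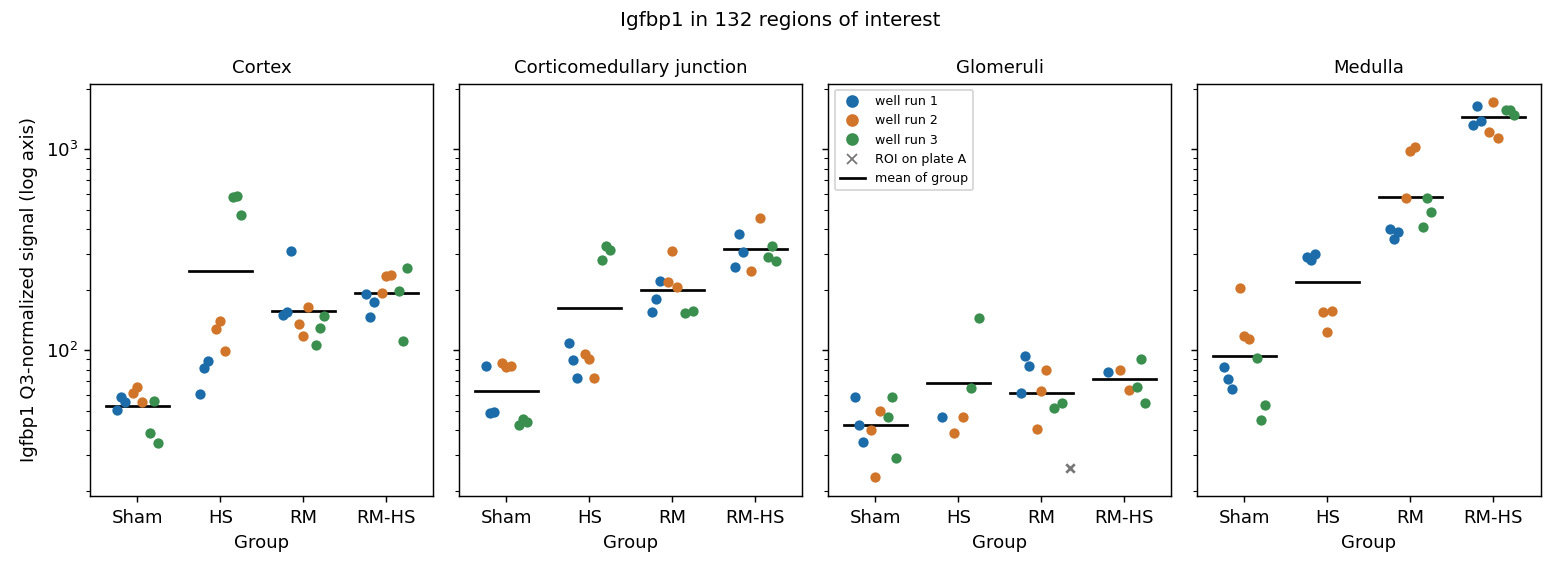
Igfbp1 signal (Q3-normalized, log axis) in all 132 ROIs, by area (panels) and group (x axis); colors mark the 3 well runs of each group, the cross is the ROI on plate A and bars are group means. In medulla the 9 RM-HS ROIs (1137 to 1709) lie above all ROIs of the other groups, and in cortex the 3 ROIs of HS run 3 lie apart from the other 6 HS ROIs.

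In the medulla, Igfbp1 differed more between the groups than in any other area. Sham medulla held 44.9 at the lowest, 82.6 at the median and 203 at the highest (mean 93.7 ± 48.0, SD, n = 9). HS medulla held 124, 219 and 302 in the same order (218 ± 81.6, n = 6). RM medulla held 355, 489 and 1024 (576 ± 252, n = 9). RM-HS medulla held 1137, 1478 and 1709 (1445 ± 196, n = 9). Every RM and RM-HS ROI was above every Sham ROI, and every RM-HS ROI was above every RM and every HS ROI. The HS values overlapped those of Sham, since 3 of 6 HS ROIs were above the highest Sham ROI.

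Igfbp1 was far from alone in this separation. All RM ROIs lay above all Sham ROIs in medulla for 4.66% of the 8827 genes tested, all RM-HS ROIs above all Sham ROIs for 4.01%, and all HS ROIs above all Sham ROIs for 0.227%. The share was 0.759% for RM-HS above RM and 4.57% for RM-HS above HS.

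Differences on the log2(signal + 1) scale were read from a limma fit over all ROIs but the one on plate A, with a plate term and the well run as a random block, and are given with their SE. In medulla, Igfbp1 was higher than in Sham by 1.90 ± 0.33 in HS, by 2.50 ± 0.27 in RM and by 3.92 ± 0.27 in RM-HS. The last is a 15.1-fold difference, and it was the highest of all 8827 genes tested in that comparison; Igfbp1 also had rank 1 in HS medulla and rank 4 in RM medulla. The median gene differed by -0.02, -0.07 and -0.01 in the same order. Within plate C alone, the differences were 2.40 ± 0.21 in RM and 3.82 ± 0.21 in RM-HS, and within plate E alone the HS difference was 2.18 ± 0.49.

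Levels varied between the well runs of a group. The 3 runs of RM-HS medulla had means of 1447, 1353 and 1536. RM run 2 had a mean of 856, against 382 and 490 in runs 1 and 3, and Sham run 2 had a mean of 145, against 72.9 and 63.3. HS run 1 held 281 to 302 and HS run 2 held 124 to 156, while HS run 3 had no medullary ROI. HS run 2 was also shallow, with 66598 to 138976 reads per ROI and 17 to 43 reads of Igfbp1. The lowest RM-HS run mean was thus above the highest RM run mean.

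Markers of cell types also differed in the medulla. The summed signal of 4 loop of Henle markers in the table (of 5 listed) was 1210 at the lowest, 2233 at the median and 2992 at the highest in Sham. It was 894, 1181 and 1301 in HS, 629, 765 and 1097 in RM, and 1016, 1210 and 1361 in RM-HS. The sum of 3 collecting duct markers (of 5) had a median of 534 in Sham, 483 in HS, 211 in RM and 339 in RM-HS. The sum of 2 leukocyte markers (of 6), Cd74 and C1qa, had medians of 104, 116, 157 and 168, and ran from 85.4 to 175 in Sham and from 132 to 223 in RM-HS. No value in the table was 0. Fewer cells of a type and less RNA per cell cannot be told apart in such regions, and the part of these markers in the Igfbp1 levels was not tested. None of 6 hepatocyte markers was in the table; they are not analysed here.

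At the corticomedullary junction, the groups followed the same order as in medulla, at lower levels. Sham held 42.3, 49.1 and 86.5 (lowest, median and highest; mean 62.7 ± 20.1, n = 9). HS held 72.7, 95.4 and 329 (162 ± 111, n = 9), RM 153, 193 and 312 (200.03 ± 53.3, n = 8), and RM-HS 248, 298 and 454 (318 ± 68.6, n = 8). All RM and RM-HS ROIs were above all Sham ROIs, as was so for 5.09% and 4.64% of genes, whereas HS overlapped Sham and RM-HS overlapped both RM and HS. All ROIs of the injured or combined group were above the other group for 0.521% of genes in HS against Sham, 0.521% in RM-HS against RM and 1.62% in RM-HS against HS. The fitted differences from Sham were 1.42 ± 0.31 in HS, 1.52 ± 0.28 in RM and 2.22 ± 0.28 in RM-HS.

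The HS junction fell into separate levels by well run. Run 3 held 281 to 329, and runs 1 and 2 held 72.7 to 108. Without run 3, the HS difference at the junction was 0.82 ± 0.23. Run 3 ROIs had 955770 to 1124738 reads and those of the other runs 335363 to 976482, ranges that overlap.

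In the cortex, the highest mean was that of HS, and it rested on 1 well run. Sham cortex held 34.5, 55.2 and 65.7 (52.8 ± 10.1, n = 9), and HS cortex held 60.3, 127 and 584 (248 ± 226, n = 9). RM cortex held 106, 148 and 311 (157 ± 60.6, n = 9), and RM-HS cortex held 111, 192 and 257 (193 ± 46.2, n = 9). All RM and all RM-HS ROIs were above all Sham ROIs (as was so for 2.06% and 1.11% of genes), while 8 of 9 HS ROIs were above the highest Sham ROI (all were for 0.113% of genes). RM-HS overlapped RM and HS (all RM-HS ROIs were above RM for 0.0113% and above HS for 0.578% of genes).

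HS run 3 held 472 to 584 in cortex, and the 6 ROIs of runs 1 and 2 held 60.3 to 140 (99.6 ± 29.6). The fitted HS difference in cortex was 1.99 ± 0.31 with all runs and 1.16 ± 0.23 without run 3. The RM and RM-HS differences in cortex were 1.37 ± 0.27 and 1.69 ± 0.27, so the order of HS against these groups changes with that run. HS run 3 had 1105841 to 1872453 reads per cortical ROI, against 187967 to 510154 in the other runs. Across the ROIs of the fit, the deviation of Igfbp1 from its group mean correlated with the deviation of log2 reads at r = 0.51. Without HS run 3, r was 0.38. These ROIs share animals and well runs, and the part of depth in the levels was not tested.

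In the glomeruli, levels were low in every group and overlapped throughout. Sham glomeruli held 23.3, 42.3 and 58.2 (42.5 ± 12.1, n = 9). The 5 HS ROIs held 38.8, 46.5, 46.5, 64.6 and 145 (68.4 ± 44.1). RM glomeruli held 25.8, 61.4 and 93.7 (61.5 ± 21.5, n = 9, with the ROI on plate A at 25.8), and RM-HS glomeruli held 54.5, 71.7 and 90.9 (71.9 ± 13.1, n = 6). All injury ROIs were above all Sham ROIs for 0.068% of genes in HS, 0.351% in RM and 0.227% in RM-HS, and Igfbp1 was not among them. RM-HS ROIs were all above RM for 0.0227% and above HS for 0.691% of genes.

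Few reads stood behind the glomerular values: 1 to 33 per ROI. The median Sham ROI had 6 reads of Igfbp1, with an exact 95% Poisson interval of 2.20 to 13.1 reads that covers counting error only. The fitted differences were 0.78 ± 0.34 in HS, 0.47 ± 0.28 in RM (without the plate A ROI) and 0.64 ± 0.29 in RM-HS. Without HS run 3, the HS difference was 0.39 ± 0.28.

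**Figure D2:**
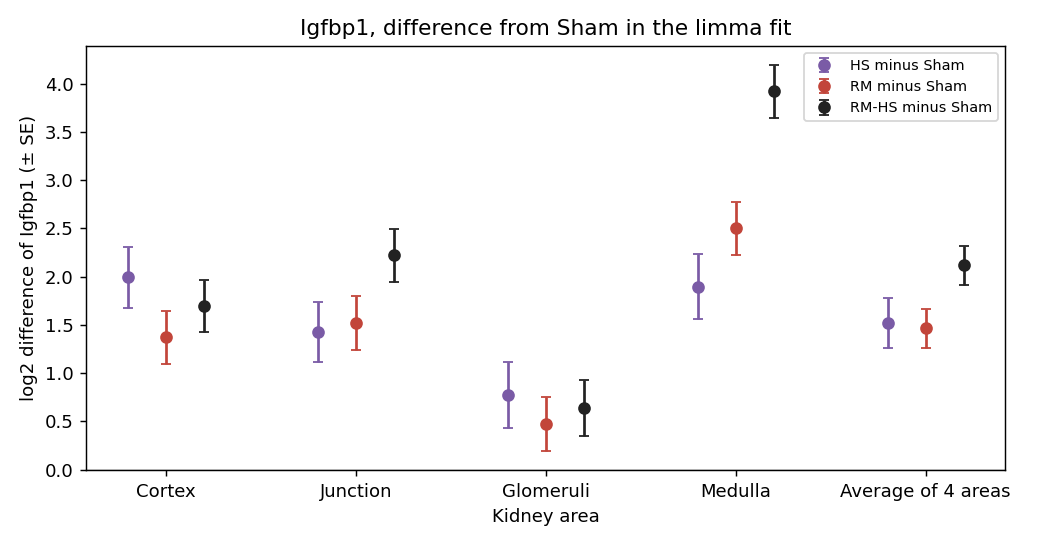
Log2 difference of Igfbp1 from Sham (y axis, with SE) by area and as the average of 4 areas, in the limma fit without the plate A ROI. RM-HS medulla has the largest difference (3.92 ± 0.27), and the glomerular differences (0.47 to 0.78) are the smallest of each group.

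Averaged over the 4 areas, Igfbp1 was higher than in Sham by 1.52 ± 0.26 in HS, 1.47 ± 0.20 in RM and 2.12 ± 0.20 in RM-HS. These gave it ranks 1, 25 and 5 among the 8827 genes. Without HS run 3, the HS average was 0.98 ± 0.16. Without Sham run 3, the Sham run that shares its plate with HS, it was 1.10 ± 0.21. That fit had no plate term, since HS alone was left on plate E. In HS results without Sham run 3, here and below, HS and plate thus cannot be told apart.

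The plot of differences by area shows how unequal the areas were. In RM-HS, the medullary difference from Sham exceeded the cortical one by 2.22 ± 0.30, that at the junction by 1.70 ± 0.31 and that in glomeruli by 3.28 ± 0.32. In RM these were 1.13 ± 0.30, 0.98 ± 0.31 and 2.03 ± 0.31. In HS the medullary difference minus the cortical one was -0.10 ± 0.32. It was 0.39 ± 0.28 without HS run 3, which has no medullary ROI, 0.33 ± 0.39 without HS run 2, -1.05 ± 0.36 without HS run 1 and 0.16 ± 0.35 without Sham run 2, so its direction depends on single runs.

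The medulla already had the higher level in Sham, by 0.70 ± 0.21 over cortex. Over the runs, the ratio of the medullary to the cortical mean was 1.34, 2.38 and 1.47 in Sham. It was 3.79 and 1.19 in HS, 1.87, 6.16 and 3.83 in RM, and 8.49, 6.12 and 8.16 in RM-HS. The 8.16 of RM-HS run 3 rests on the assumed joining of its medullary wells to the rest. The RM-HS and RM ranges overlap through RM run 2. Glomeruli were below cortex in every run of the injury groups, at 0.193 to 0.605 of the cortical mean.

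Set in order, the 16 means ran from RM-HS medulla (1445) through RM medulla (576), RM-HS junction (318), HS cortex (248), HS medulla (218), RM junction (200.03), RM-HS cortex (193), HS junction (162) and RM cortex (157) to Sham medulla (93.7). Below these came RM-HS glomeruli (71.9), HS glomeruli (68.4), Sham junction (62.7), RM glomeruli (61.5), Sham cortex (52.8) and Sham glomeruli (42.5). Neighbours differed by more than the larger of their SDs at 3 steps: from RM-HS medulla to RM medulla, from RM medulla to RM-HS junction, and from RM cortex to Sham medulla. No other neighbours differed beyond their spread.

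The combined injury was set against each single one. RM-HS medulla was above RM medulla by 1.42 ± 0.26 and above HS medulla by 2.02 ± 0.39. At the junction the differences were 0.70 ± 0.27 and 0.80 ± 0.38, in cortex 0.32 ± 0.26 and -0.30 ± 0.37, and in glomeruli 0.17 ± 0.28 and -0.14 ± 0.41. Without HS run 3, RM-HS minus HS was 0.53 ± 0.26 in cortex, so the direction there depends on that run.

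Whether the combination exceeds the sum of its parts differed between a linear and a log2 calculation. The linear one used group means, without the plate term of the fit and without an SE. On the linear scale, RM-HS medulla was 1352 above Sham, against a sum of 607 for the HS and RM rises taken singly, a ratio of 2.23. The ratio was 1.08 at the junction, 0.655 in glomeruli and 0.469 in cortex, and without HS run 3 it was 1.57, 1.44 and 0.929 in the same order, so in glomeruli it crossed 1. On the log2 scale, RM-HS minus RM minus HS plus Sham was -0.48 ± 0.42 in medulla, -0.72 ± 0.41 at the junction, -0.61 ± 0.44 in glomeruli and -1.67 ± 0.40 in cortex. Without HS run 3, these were -0.13 ± 0.30, -0.13 ± 0.30, -0.23 ± 0.35 and -0.84 ± 0.30 in the same order. The medullary value was 0.03 ± 0.41 without Sham run 3, and -0.21 ± 0.39 with all runs but no plate term.

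The other genes of the IGF axis were tested singly. Of 25 listed ligands, receptors, binding proteins, proteases and adaptors, 14 were in the table, and 13 remain without Igfbp1. Each was tested in the limma fit at a two-sided adjusted p (Benjamini-Hochberg) under 0.05 over 8827 genes. Since ROIs share animals, such p-values are too small.

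Averaged over areas, 0 of 13 passed in HS (3 at an unadjusted p under 0.05), where 0.17% of all genes did. In RM and in RM-HS, 1 rose and 1 fell, where 8.3% and 6.83% of all genes passed. The median difference of the 13 was -0.07 in HS, -0.01 in RM and 0.08 in RM-HS, against -0.03, -0.06 and -0.02 over all genes. Without Sham run 1, 0 of 13 passed in each of the 3 comparisons (at an unadjusted p under 0.05, 3 in HS, 2 in RM and 1 in RM-HS), and without RM-HS run 3, 0 passed in RM-HS (3 unadjusted). Other runs left out raised the counts: without HS run 3, 2 fell in HS, 2 rose and 2 fell in RM, and 4 rose and 1 fell in RM-HS; without Sham run 3, 1 rose and 2 fell in HS. Within plate C, 3 rose and 3 fell in RM, and 4 rose and 2 fell in RM-HS. There, 2548 and 1787 of all 8827 genes passed. Over all genes, leaving out runs gave 12 to 1017 calls in HS, 294 to 2232 in RM and 193 to 1553 in RM-HS. The lowest RM and RM-HS totals came without Sham run 1. Counts under other settings, here and for the lists below, are thus not results about the listed genes alone. Medullary totals under other settings are not given here.

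**Figure D3:**
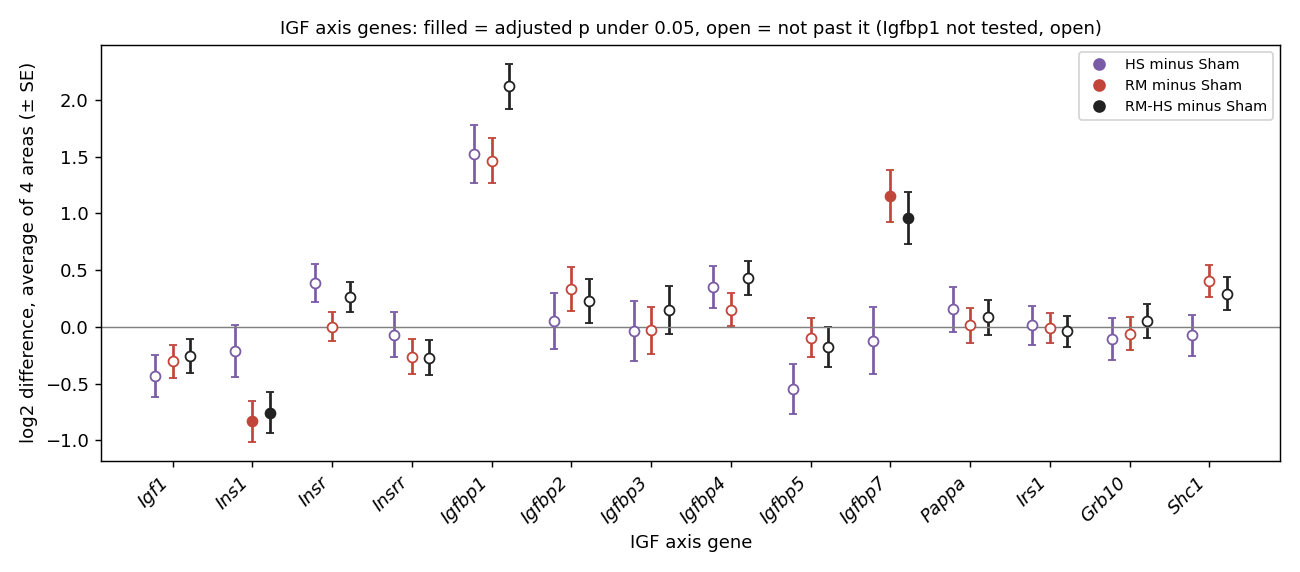
Log2 difference from Sham (y axis, average of 4 areas, with SE) for the 14 IGF axis genes in the table. Filled points passed the limma test; Igfbp1 was not tested and stands at 1.47 to 2.12, while of the other genes Igfbp7 rose and Ins1 fell in RM and RM-HS.

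Of the ligands, Igf1, the main circulating growth factor of the axis, differed by -0.43 ± 0.19 in HS, -0.30 ± 0.15 in RM and -0.25 ± 0.15 in RM-HS, and passed in none of these averages. In RM medulla it fell by 0.76 (adjusted p = 0.00527), from 48.8, 78.4 and 92.0 in Sham (lowest, median and highest) to 31.5, 44.2 and 50.8. The groups overlapped only between 48.8 and 50.8. The signal of Igf1 was near background, at a median of 1.65 times the negative probe and above 2 times in 48 of 132 ROIs. Its medullary fall in RM did not pass with the negative probe subtracted. Ins1, an insulin gene of pancreatic beta cells, fell by 0.83 in RM (adjusted p = 0.000245) and by 0.75 in RM-HS (adjusted p = 0.00171). Neither fall passed without Sham run 1, nor that in RM-HS without RM-HS run 3. The signal of Ins1 was a median of 1.76 times the negative probe, above 2 times in 50 of 132 ROIs, and Sham run 1 stood highest, at 4.44 times on average against 1.17 to 2.59 in the other 11 runs.

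Among the receptors, the insulin receptor gene Insr differed by 0.39 ± 0.17, 0.00 ± 0.13 and 0.27 ± 0.13 in HS, RM and RM-HS, and did not pass. In RM-HS medulla Insr rose by 0.65 (adjusted p = 0.00967). There its 9 ROIs held 96.9 to 121 and the Sham ROIs 54.6 to 73.6, with no overlap, as was so upward for 4.01% of genes. The related receptor gene Insrr differed by -0.07, -0.26 and -0.27 and did not pass.

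The binding proteins differed in direction. Igfbp7, which encodes a matrix protein of low IGF affinity, rose by 1.16 ± 0.23 in RM (adjusted p = 4.34e-05; 32 of 34 ROIs exceeded the mean of Sham) and by 0.96 ± 0.23 in RM-HS (adjusted p = 0.00159; 26 of 32), and differed by -0.12 ± 0.29 in HS. It rose in cortex by 1.69 in RM and 1.35 in RM-HS, in glomeruli by 1.53 and 1.08, and at the junction by 1.02 in RM-HS. In medulla, where Igfbp1 differed most, Igfbp7 held medians of 318 in Sham, 331 in RM and 292 in RM-HS and did not pass. The run means of Igfbp7 in log2 were 6.73 to 7.97 in Sham and 6.88 to 9.06 in HS; without Sham run 1 neither rise passed, nor that in RM-HS without RM-HS run 3.

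Igfbp4, which holds IGFs until the protease encoded by Pappa cuts it, differed by 0.43 ± 0.15 in RM-HS (adjusted p = 0.0562). In RM-HS medulla it rose by 0.82 (adjusted p = 0.00267), with 58.5, 95.6 and 177 against 50.5, 54.6 and 67.7 in Sham. It also rose in RM-HS glomeruli by 0.89. Igfbp5, the binding protein with the strongest hold on matrix, fell in medulla by 0.89 in RM (adjusted p = 0.00534) and by 0.81 in RM-HS (adjusted p = 0.0204). Sham medulla held 57.1, 127 and 238 for Igfbp5, RM medulla 41.8, 58.8 and 76.7 and RM-HS medulla 44.6, 54.9 and 85.4, so the groups overlapped.

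Igfbp2 and Igfbp3 were near background, at medians of 1.17 and 1.43 times the negative probe. Their averages differed by 0.05, 0.33 and 0.23 for Igfbp2 and by -0.04, -0.03 and 0.15 for Igfbp3, and did not pass; Igfbp2 rose in RM glomeruli by 0.86 (adjusted p = 0.0177). The protease gene Pappa and the adaptor genes Irs1 and Grb10 differed by no more than 0.15 in any average, and the adaptor gene Shc1 rose in RM medulla by 0.76 (adjusted p = 0.00321). Medullary calls thus numbered 0 of 13 in HS (3 at an unadjusted p under 0.05), 3 in RM and 3 in RM-HS, where 0.374%, 5.96% and 4.5% of all genes passed. In HS medulla, 2 fell without HS run 3, and without RM-HS run 2, 1 passed in RM-HS medulla. Insr rose in HS glomeruli by 0.80, where 9.52% of genes passed. The shares of all genes that passed were 5.49%, 5.64% and 12.8% in RM cortex, junction and glomeruli, and 3.78%, 6.15% and 6.62% in RM-HS. Of the other 11 listed genes, among them Igf2, Igf1r and Igfbp6, none is in the table and they are not analysed here.

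Of the area calls of the IGF axis, several were lost without 1 run. The rise of Insr in RM-HS medulla did not pass without RM-HS run 3, Sham run 1 or Sham run 2. That of Igfbp4 did not pass without RM-HS run 2. The fall of Igf1 in RM medulla did not pass without RM run 2 or Sham run 2, and the rise of Shc1 without Sham run 1. Neither medullary fall of Igfbp5 passed without Sham run 2 or Sham run 3, nor that in RM without RM run 3, nor that in RM-HS without RM-HS run 1 or RM-HS run 2 or within plate C. In glomeruli, Insr in HS did not pass without HS run 3 or Sham run 3, Igfbp2 in RM without RM run 2, RM run 3 or Sham run 1, and Igfbp4 in RM-HS without RM-HS run 2 or RM-HS run 3. Every area rise of Igfbp7 was lost without Sham run 1. Those in RM-HS were also lost without RM-HS run 3, and that at the junction also without RM-HS run 2 or Sham run 3. With each run averaged within its area before the fit, none of these area calls passed. Several were also lost with the negative probe subtracted. In medulla these were Igf1 and Shc1 in RM, Insr in RM-HS, and Igfbp5 in both RM and RM-HS. The rises of Igfbp7 at the RM-HS junction and in RM-HS glomeruli were lost in the same way.

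Genes that respond to the signals known to act on Igfbp1 were taken as 4 further lists. Of 12 tested FOXO and insulin-repressed genes, 0 passed in HS (3 at an unadjusted p under 0.05), 1 rose and 1 fell in RM, and 2 rose and 1 fell in RM-HS, against the 0.17%, 8.3% and 6.83% of all genes that passed. The median difference was 0.21, 0.18 and 0.11. Txnip, which restrains glucose uptake, rose by 0.89 ± 0.20 in RM and 1.12 ± 0.21 in RM-HS (adjusted p = 0.000663 and 1.44e-05), and Trib1, which encodes a pseudokinase, by 0.55 in RM-HS. Klf15, a transcription factor of amino acid and glucose metabolism, fell by 0.44 in RM and by 0.45 in RM-HS. In HS, G6pc, the last enzyme of gluconeogenesis, differed by 0.82 ± 0.26 and Txnip by 0.79 ± 0.26 without passing. Without Sham run 1, 0 of 12 passed in RM and in RM-HS (3 in each at an unadjusted p under 0.05). In that setting, 294 and 193 of all genes passed. In the fit that left out HS run 3, 6 rose and 2 fell in RM, as within plate C, 5 rose and 2 fell in RM-HS, and 1 fell in HS; without Sham run 3, 3 rose in HS, and without HS run 1 or HS run 2, 1 did. Without HS run 2, 2 rose and 2 fell in RM. Only 1 passed in RM without RM run 1 or Sham run 2, and in RM-HS without RM-HS run 1, RM-HS run 2 or Sham run 2. Klf15 also did not pass without Sham run 2, in RM without RM run 1, and in RM-HS without RM-HS run 1 or 2; Trib1 did not without Sham run 2 or any 1 of the RM-HS runs.

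In RM-HS medulla, 4 of these 12 rose and 1 fell, where 4.5% of all genes passed; the following were named after their values were seen. Txnip rose by 1.62 (adjusted p = 3.76e-06), Trib1 by 0.83, Insr, also of the IGF list, by 0.65 and Sesn3 by 0.64; the last 3 did not pass without Sham run 1. Trib1 also did not without RM-HS run 1, nor Insr without RM-HS run 3 or Sham run 2, nor Sesn3 without Sham run 2 or any 1 of the RM-HS runs. Insr and Sesn3 also did not pass with the negative probe subtracted. With each run averaged within its area, 1 rose and 1 fell. Ppargc1a, a coactivator of mitochondrial genes, fell by 1.43 in RM-HS (adjusted p = 2.28e-05) and by 1.37 in RM. Txnip in RM-HS and Ppargc1a in both passed under every alternative run for these comparisons.

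Of 12 glucocorticoid-induced genes, 5 rose in HS, 5 in RM and 10 in RM-HS, where 0.125%, 7.52% and 5.99% of all genes rose; none of the 12 fell. The median difference was 0.51, 0.41 and 0.58. In HS, Tsc22d3, the glucocorticoid-induced leucine zipper gene, rose by 1.51 ± 0.21 (adjusted p = 3.53e-07; 23 of 29 ROIs exceeded the mean of Sham). The metallothionein genes Mt2 and Mt1, which also respond to metals, rose in HS by 1.32 and 0.89, and the transcription factor gene Zbtb16 by 0.83. Mt2 and Mt1 rose by 2.41 and 1.47 in RM and by 2.63 and 1.52 in RM-HS. Glul, glutamine synthetase, rose by 0.71 and 1.03 in RM and RM-HS, and Cebpd, a transcription factor gene of the acute phase, by 0.67 and 0.76. Within plate E, 0 of 12 passed in HS (6 at an unadjusted p under 0.05), and 0 of all genes did. With each run averaged within its area, 1 passed in HS, 4 in RM and 6 in RM-HS. Of all genes, 2, 426 and 290 did in the same order. Without HS run 3, the HS rises were 0.73 for Mt2, 0.59 for Mt1 and 0.53 for Zbtb16, and that of Tsc22d3 was 0.64 without Sham run 3. In RM, 3 passed without Sham run 1 and 8 without HS run 3. In RM-HS, 5 passed without RM-HS run 3 and 3 without Sham run 1, when Glul did not; Glul in RM also did not without RM run 1 or RM run 3.

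Tsc22d3 differed by -0.14 ± 0.16 in RM and 0.01 ± 0.17 in RM-HS without passing. RM-HS minus HS was -1.49 ± 0.27 for Tsc22d3 (adjusted p = 9.44e-05), where 1.09% of all genes passed. It was -0.99 without HS run 3 and -0.63 without Sham run 3, and did not pass with each run averaged within its area (adjusted p = 0.109). RM against HS was not tested. In medulla, 2 glucocorticoid-induced genes rose in HS, 7 in RM and 7 in RM-HS, against 0.0453%, 4.84% and 3.59% of all genes. The HS genes were Tsc22d3 (1.52) and Dusp1, a phosphatase gene (0.97), named after their values were seen; neither passed without Sham run 3 (1 other gene did), within plate E or with each run averaged within its area. In RM medulla, 4 passed without RM run 1, RM run 3 or Sham run 1. Mt2 rose in medulla by 2.55 in RM and 2.89 in RM-HS. Ddit4, an inhibitor of mTORC1 that is also on the ATF4 list, rose by 0.69 and 1.48. Its rise in RM was lost without any 1 of the RM runs, Sham run 1 or Sham run 2. With the negative probe subtracted, that rise was also lost.

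Of 13 genes of ATF4 and the integrated stress response, 0 passed in HS (2 at an unadjusted p under 0.05), 6 rose in RM and 7 in RM-HS, against 0.125%, 7.52% and 5.99% of all genes. The median difference was 0.11, 0.32 and 0.60. Gdf15, a secreted stress cytokine gene, rose by 1.55 and 1.51, the transcription factor genes Atf3 by 1.51 and 1.53 and Atf4 by 1.39 and 1.31, and the phosphatase subunit gene Ppp1r15a by 0.95 and 1.05. For each of these 4 genes, all 34 RM ROIs exceeded the mean of Sham. In RM-HS, 32 of 32 ROIs did for Gdf15 and Atf4, and 31 of 32 for Atf3 and Ppp1r15a. The share of all genes that reach such counts, here and above, was not computed. In HS, Gdf15 differed by 0.51 ± 0.23 and Atf4 by 0.41 ± 0.15. Without Sham run 1, 6 passed in RM and 4 in RM-HS, and 5 passed in RM-HS without RM-HS run 3. In HS, 2 rose without Sham run 3 and 1 without HS run 2 or HS run 3.

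Of 14 targets of hypoxia-inducible factors (HIF), 0 passed in HS (1 at an unadjusted p under 0.05), 5 rose in RM and 6 in RM-HS, against the same shares of all genes. The median difference was 0.12, 0.27 and 0.32. Ndrg1 rose by 0.96 and 0.85, Pfkfb3, an activator of glycolysis, by 0.67 and 1.09, and the glycolytic enzyme gene Aldoa by 0.58 and 0.59. Pgk1 rose by 0.45 in RM and Hk1 by 0.48 in RM-HS. In HS, Ndrg1 differed by 0.49 ± 0.23 and Pfkfb4 by -0.30 ± 0.16. In medulla, 0 of 14 passed in HS (0 at an unadjusted p under 0.05) and RM (7 at an unadjusted p under 0.05), and in RM-HS Pfkfb3 rose by 1.04, where 0.374%, 5.96% and 4.5% of all genes passed. When HS run 3 was left out, 2 fell in HS medulla, 5 rose in RM medulla and 3 rose in RM-HS medulla. RM medulla had 3 without HS run 2, 2 without Sham run 3 and 1 without RM run 3 or Sham run 2, and RM-HS medulla had 2 without HS run 2. Without Sham run 1, 1 of 14 passed in each of RM and RM-HS, and 3 passed in RM-HS without RM-HS run 3 and in RM without RM run 3. Averaged over areas, 7 rose and 2 fell in RM and 1 fell in HS without HS run 3; without Sham run 3, 3 rose and 1 fell in HS, and without HS run 2, 1 rose. With each run averaged within its area, 1 passed in RM and 3 in RM-HS, against 426 and 290 of all genes. Ndrg1 in RM-HS did not pass without RM-HS run 3, nor Pfkfb3 in RM without RM run 3 or Sham run 2.

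Likeness to Igfbp1 was measured as the Pearson correlation over the 16 means of group and area in log2(signal + 1). These means share ROIs, libraries and scaling, so the values only rank genes. The 10 highest were Sat1 (0.94), C1qc (0.94), Ostf1 (0.93), Mt1 (0.92), Arpc1b (0.91), Ube4b (0.91), Rgs7bp (0.91), Clic1 (0.91), Txnip (0.91) and Glycam1 (0.91). Sat1 encodes the acetyltransferase of polyamine breakdown, C1qc a chain of complement C1q and Arpc1b a subunit of the actin-branching complex. Ube4b and Glycam1 were near background. In Sham medulla their means in log2(signal + 1) were 4.15 and 4.54, against 6.42 for Igfbp1. The median signal of the negative probe there was 19.2. With Spearman correlation, 3 of these 10 remained among the 10 highest (Sat1, Ostf1 and Mt1), and 6 did without the RM-HS medulla.

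Sat1 held medians of 240.1 in Sham medulla, 514 in HS, 1194 in RM and 1691 in RM-HS. Mt1 held 316, 449, 952 and 1329 in the same order. Both thus had the order of groups that Igfbp1 had in medulla. In cortex Sat1 held 149, 223, 508 and 594, where the HS median stood below the RM and RM-HS medians, as that of Igfbp1 did. Sat1 and Mt1 were picked by likeness over means that include these areas. The choice favored such shared orders, so they are not separate observations.

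**Figure D4:**
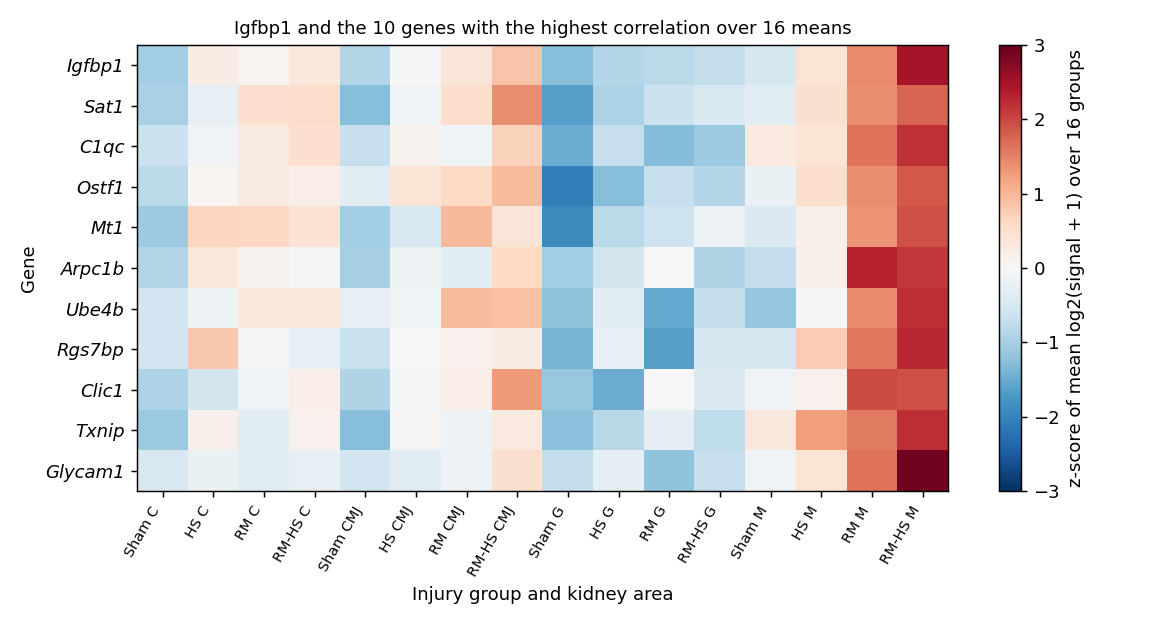
Standardized mean log2(signal + 1) (color, z-score over the 16 groups) of Igfbp1 and the 10 genes with the highest correlation with it (0.91 to 0.94). Columns are groups by area. All 11 rows are high in RM and RM-HS medulla, which are among the columns used to pick the genes.

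Over single ROIs, after the group means were taken off, other genes stood nearest. Aldoa, Gabarapl1, Stat3, Mt2 and Pgam1 each correlated with Igfbp1 at 0.61 over the ROIs of the fit. Without HS run 3 these correlations were 0.37, 0.44, 0.44, 0.39 and 0.36. Gabarapl1 is a gene of autophagy, Stat3 encodes a transcription factor of cytokine signaling, and Pgam1 a glycolytic enzyme.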

How the data were processed

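Expression was measured in 132 ROIs with the GeoMx Mouse WTA probe panel, per the labels' protocols. The deposited file holds Q3-normalized signal for 9271 genes and 1 negative probe; the authors' scaling gives each ROI a 75th percentile of 58.2. Builds named in the submitters' processing notes are GRCh38 and hg38, both human; the sources used here give neither their role nor the software. Every value is a whole multiple of 1 step per ROI (100% within 0.0001 reads), from which reads were recovered to describe depth.

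Samples were grouped by the injury and area in their labels. Well runs were assigned from the order of wells in the titles, with RM-HS run 3 joined from separate stretches. A gene was tested if it exceeded 2 times the negative probe in 10% or more of the ROIs: 8827 were, and 444 were left out. limma 3.58.1 (R 4.3.3, statmod 1.5.0) was fitted to log2(signal + 1), pseudocount 1, over all ROIs but 1: 16 means, a plate term, the well run as random block (consensus correlation 0.13), variance trend, and Benjamini-Hochberg adjusted p under 0.05, two-sided. Differences of low genes are understated on this scale. The ROI on plate A was left out of the fit. Because nothing ties a ROI to its animal, p-values over ROIs are too small.

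Igfbp1, the gene lists and the tests were chosen with earlier results of these data known. Named genes are Igfbp1, the measured IGF axis, up to 4 called members with the largest change per other list and injury (or the 2 with the lowest p), and the genes most like Igfbp1 (10 over means, 5 over ROIs). Alternatives changed the pseudocount (5), the filter, the normalization, background, plate, averaging, weights and runs. An edgeR alternative was planned and not run. The fit was tested on simulated data.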

Additional observations from a re-analysis of the deposited data

Results flagged for a closer look

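In 4 of the 16 groups, the highest ROI of Igfbp1 lay far from the rest of its group, with a gap over range above Dixon's critical value. This is a description: about 1 in 20 groups of independent normal draws would pass it. ROIs of a group share animals and well runs, so that rate does not hold here. The rule was applied to the linear signal, on which high values lie further apart than in log2. It was not run on the log2 scale used for the differences. In RM cortex the highest ROI held 311 (n = 9), from RM run 1. In RM junction it held 312 (n = 8), from RM run 2. In HS glomeruli it held 145 (n = 5), from HS run 3, with 25 reads of Igfbp1. In Sham medulla it held 203 (n = 9), from Sham run 2. No cause was tested.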

How the results depend on the processing

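Over the alternatives run, 606 values of Igfbp1 differences moved by less than the SD of ROIs around their group means (0.59 in log2) and 19 by more. Many alternatives barely touch a given difference, so these counts do not measure stability. Changes of sign below that SD count among the 606. Without the plate term, RM-HS minus HS went from -0.30 to 0.13 in cortex and from -0.14 to 0.30 in glomeruli. Igfbp1 stayed above Sham in every injury and area under all alternatives. With the negative probe subtracted, the differences were 3.00 (HS cortex), 2.10 (HS junction), 1.63 (HS glomeruli), 2.28 (HS average), 2.01 (RM cortex) and 2.37 (RM-HS cortex), and the combined-minus-single terms -2.64 (cortex), -1.33 (junction), -1.50 (glomeruli) and -1.60 (average); the median gene moved from -0.03 to 0.10 in HS and from -0.02 to -0.14 in RM-HS.

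Leaving out 1 well run in turn gave HS differences of 1.16 to 2.57 in cortex, 0.82 to 1.74 at the junction and 1.39 to 2.57 in medulla. RM-HS minus HS was -0.88 to 0.53, 0.48 to 1.40 and 1.35 to 2.43 in the same order, and the combined-minus-single term -2.25 to -0.84, -1.04 to -0.13 and -1.15 to 0.027. In medulla, HS run 2 gave the extremes 2.57, 1.35 and -1.15. RM-HS minus Sham in medulla stayed between 3.65 and 4.28.

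Genes called in HS numbered 15 (11 up, 4 down); quantile normalization gave 27 (15 up, 12 down), background subtraction 43, no plate term 320 (130 up, 190 down), 1 mean per run and area 2, and plate E alone 0 in limma (74 at an unadjusted p under 0.05). Runs left out gave 12 to 1017. RM called 733 (664 up, 69 down), against 1530 (966 up, 564 down) with quantile normalization, 2548 within plate C (1357 up, 1191 down), 426 with 1 mean per run, 1352 with array weights (1008 up, 344 down) and 294 to 2232 with runs left out. RM-HS called 603 (529 up, 74 down), against 1346 (814 up, 532 down), 1787 (1167 up, 620 down), 290, 909 and 193 to 1553. The lowest counts came without Sham run 1 in RM and RM-HS. Igfbp7 in HS, -0.12 with all runs, ran from -0.80 to 0.79 with runs left out, the last without Sham run 3 (adjusted p = 0.0188). In that fit, which had no plate term, HS and plate cannot be told apart. Causes were not tested. The edgeR alternative was not run. No paired analysis was possible because the groups compared share no replicate numbers in the labels; areas of 1 run were kept together by the random block. Few reads limit the glomerular values.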
